A study of Arabidopsis thaliana with 15 samples.

Results

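The 134 genes described here were those with the clearest gain of transcript after STM-GR was activated, of 28775 genes counted. They were chosen on the deposited normalised counts. The mean of the 3 DEX-treated STM-GR libraries had to be at least 30, at least 2 times the mean of the 3 mock-treated STM-GR libraries and at least 2 times the mean of the 2 DEX-treated wild-type libraries. Every DEX-treated STM-GR value also had to lie above all 5 of those other values. With 7 genes that were left out by name, 141 genes met these conditions. These 8 libraries chose the genes, so any value that sets them against each other is a description without a test.

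RNA from Arabidopsis thaliana inflorescence meristems of the Ler background was sequenced in 15 libraries, from plants grown for 6 weeks at 21 °C. The STM-GR plants carried 35S::STM-GR and were sprayed with 10 µM dexamethasone (DEX) in 0.02% Silwet (n = 3) or with 0.02% Silwet alone as mock (n = 3). Wild-type plants received the same DEX spray (n = 2), and tissue of sprayed plants was collected 5 h later. The labels give no treatment for wild type (n = 2), for ap1-1 (n = 3), or for the line called the microRNA line here (n = 2), whose label reads ap1-1 plus a microRNA that targets STM and BP, driven by the promoter of AP1. No mock-sprayed wild type and no protein synthesis inhibitor are labelled, so direct and later responses to STM cannot be told apart. The labels do not say how many transgenic lines or pooled plants stand behind a group, nor that replicates were grown apart, so p-values measure only the spread between these samples.

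SHOOT MERISTEMLESS (STM) is a class I KNOX homeodomain protein that keeps cells of the shoot meristem undifferentiated. It pairs with BELL homeodomain proteins and binds DNA sites with a TGAC core. Fused to the glucocorticoid receptor (GR), it stays in the cytoplasm until DEX lets it enter the nucleus, and the 35S promoter makes the fusion in most cells, beyond the cells that normally hold STM. In inflorescences STM is known to maintain the meristem, to act with boundary genes and to promote flower formation, while AP1 gives flower meristems their identity.

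Gene counts per library ranged from 18717248 to 26539358, and edgeR tested 21716 genes. STM counts, which include the transgene, were 18733 ± 1122 normalised counts (SD, n = 3) with DEX and 18668 ± 165 (n = 3) with mock, against 1071 ± 17.9 (n = 2) in wild type, 1091 ± 72.3 (n = 3) in ap1-1 and 718 ± 12.4 (n = 2) in the microRNA line. Of the 8 markers for inflorescence and flower meristems, all but CLV3 were detected in every library. Group means were 320 to 801 normalised counts for WUS, 1131 to 1713 for CLV1, 125 to 217 for LFY and 2009 to 6815 for AP1. They were lower for UFO, at 12.4 to 57.4, and for TFL1, at 22.6 to 69.8. CLV3 was at 0 in 11 libraries and at most at 2.15 in the others. The 3 mature pollen markers summed to 5069 to 5180 normalised counts in the microRNA line and to 17652 to 37115 in all other libraries. The 6 photosynthetic markers summed to 235643 to 358832 over all libraries, so transcripts of pollen and green tissue were present in every library. In bulk tissue, fewer cells of a type and less RNA per cell cannot be told apart. Replicates of wild type and of ap1-1 were less alike than those of other groups (chi-square per gene of 14.2 to 32.2 against 3.14 to 7.67).

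Promoter stretches that hold TGACAG, the longer form of the TGAC core, are shown for 7 of the genes because they are the sequences in which a KNOX site would first be looked for. They are the genes whose motif, with 22 bases on each side, lies within 250 bases before the annotated start in a stretch that overlaps no annotated gene. The sequences come from RefSeq's TAIR10.1 assembly, run 5′ to 3′ on the gene's strand, and have the motif in capitals, as TGACAG or as its reverse complement CTGTCA.
AT4G29905: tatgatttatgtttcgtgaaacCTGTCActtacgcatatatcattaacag
SQE6: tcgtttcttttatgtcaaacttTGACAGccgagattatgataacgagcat
ENODL18: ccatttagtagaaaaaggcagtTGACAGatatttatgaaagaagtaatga
CBF2: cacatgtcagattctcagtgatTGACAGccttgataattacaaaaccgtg
BGLU46: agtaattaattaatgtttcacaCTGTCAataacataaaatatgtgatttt
AT4G37220: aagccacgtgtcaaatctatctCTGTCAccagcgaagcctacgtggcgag
GulLO5: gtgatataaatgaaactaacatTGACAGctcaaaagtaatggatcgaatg

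The first base of the motif lay 171 bases before the start in AT4G29905 (chr4:14627775-14627824, minus strand), 60 in SQE6 (chr5:8186737-8186786, minus strand) and 97 in ENODL18 (chr1:2688761-2688810, plus strand). The distance was 153 bases in CBF2 (chr4:13016361-13016410, minus strand), 182 in BGLU46 (chr1:22834874-22834923, plus strand), 119 in AT4G37220 (chr4:17514901-17514950, plus strand) and 71 in GulLO5 (chr2:19207652-19207701, minus strand). Their ratios of DEX to mock ran from 4.87 in AT4G29905 to 2.78 in GulLO5. In the window from 250 bases before to 50 after the start, read on both strands, TGACAG stood in 15 of the 134 genes (11.2%) and in 7.06% of all 28009 genes with an annotated start. The longer TGACAGNT, which contains TGACAG, stood in 7 of them (5.22%, against 2.44% of all). The G-box CACGTG stood in 16 (11.9% against 7.66%) and the evening element AAATATCT in 10 (7.46% against 5.64%). With 1000 bases before the start, TGACAG stood in 34 genes (25.4% against 21.9%), TGACAGNT in 11 (8.21% against 7.90%), CACGTG in 31 (23.1% against 14.8%) and AAATATCT in 31 (23.1% against 15.2%). The shares for TGACAGNT thus lay close together in the longer window. A match is a string of letters and not a measured binding site, and most of the 134 genes had no TGACAG in the shorter window.

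The gains were mostly modest, with a few very large ones. The ratio of the DEX mean to the mock mean in STM-GR plants had a median of 2.69 and ran from 2.004 to 50.8. It was at least 3 in 59 genes, at least 5 in 18 and at least 10 in 3, and 75 lay under 3. Against DEX-treated wild type the median ratio was 2.72. Mock-treated STM-GR and DEX-treated wild type were close to each other, with a median ratio of 1.00 and means within 1.5-fold in 118 of the genes. The DEX-treated STM-GR libraries had a median coefficient of variation of 10.08%, and in 13 genes it was over 25%.

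The genes just inside the 2-fold line were GRF7, with a smaller ratio of 2.00003, AT2G35640 (2.004) and AT4G14740 (2.01). Just outside it lay AT4G25433 (1.99), PRR9 (1.99) and AT5G67385 (1.97), and just below the level of 30 lay AT4G37235 (29.1) and AT1G10340 (27.2), against 30.4 for AT4G37225 and 31.0 for AT3G13672 above it.

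The active fusion gave the highest level in most of these genes across all groups, including those that the choice did not use. In 120 of the 134 genes all 3 DEX-treated STM-GR libraries lay above the other 12 libraries, and by group mean 129 were highest there. The same held for 9.83% of the 19044 genes with a mean of at least 30 normalised counts, but the choice used 8 of the 15 libraries, so the contrast is not a finding.

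**Figure D1:**
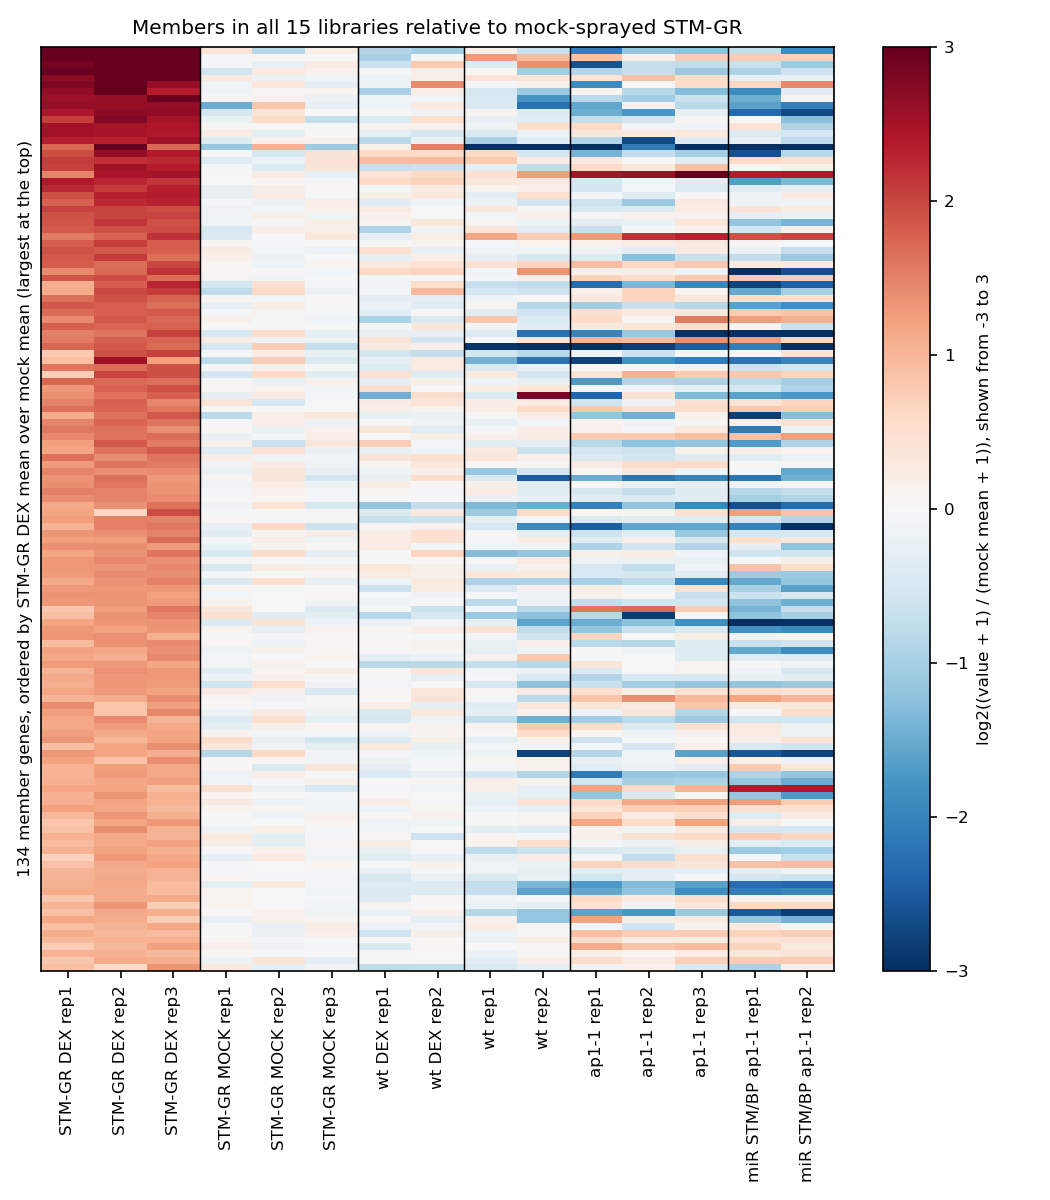
Each row is 1 of the 134 genes, ordered by the ratio of DEX to mock with the largest at the top, and each column is 1 of the 15 libraries. Colour gives log2 of the normalised count plus 1 over the mock mean plus 1, shown from -3 to 3, and the STM-GR DEX columns are red throughout while the unsprayed columns vary from gene to gene.

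Membrane transport genes included the gene with the largest ratio. OCT6, annotated as an organic cation/carnitine transporter, was at 319, 345 and 346 normalised counts with DEX, at 9.04, 3.23 and 7.60 with mock and at 3.14 and 2.75 in DEX-treated wild type. In the unsprayed groups it was at 7.51 and 3.78 in wild type, at 0.851, 2.42 and 2.30 in ap1-1 and at 3.64 and 1.103 in the microRNA line. OCT6 was thus near the bottom of the count range in every library without active STM-GR, and its DEX mean was 50.8 times the mock mean and 114 times the mean of DEX-treated wild type. OCT6 overlaps AT1G16380 in the annotation, as 34 of the 134 genes overlap some other gene. Whether counting used strand is not given in the sources used here, so reads of overlapping genes cannot be told apart. None of the 5 other genes of the OCT family passed the edgeR test between DEX and mock, with log2 fold changes of -0.56 to 0.10. Of all genes tested, 5.56% were called higher and 7.15% lower in that comparison.

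The other 7 transport genes had smaller ratios. AT3G16180, a major facilitator superfamily gene, was at 5962, 7057 and 5935 normalised counts with DEX against 1781, 1588 and 1668 with mock, a ratio of 3.76. It was at 1625 and 1818 in wild type, at 1842, 1959 and 2011 in ap1-1 and at 1719 and 1626 in the microRNA line, so all groups without active STM-GR lay in 1 narrow band. AT3G09450, of a fusaric acid resistance family, was at 81.2, 108 and 146 with DEX and at 9.95, 8.60 and 12.4 with mock. AT2G39130, an amino acid transporter family gene, was at 2675, 2959 and 2898 with DEX and at 1063, 1088 and 1165 with mock. The spread with DEX was wide in AT3G09450 and narrow in AT2G39130.

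Cell wall and glycoside genes numbered 8, with a median ratio of 3.70 and a range of 2.39 to 9.15. BGLU45 and BGLU46 encode glucosidases known to release monolignols, the building blocks of lignin, from their glucosides. BGLU45 was at 2562, 2507 and 2718 normalised counts with DEX, at 194, 346 and 311 with mock and at 271 and 323 in DEX-treated wild type. BGLU46, its neighbour 349 bases away on the same strand, was at 911, 863 and 789 with DEX, at 209, 290 and 246 with mock and at 216 and 192 in DEX-treated wild type. Both pairs of groups were far apart in every library, and the ratio was 9.15 for BGLU45 and 3.44 for BGLU46. The third glucosidase, BGLU7, was at 465, 450 and 429 with DEX and at 94.0, 66.7 and 80.8 with mock.

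Of 14 genes of the lignin list tested outside the 134, 1 rose and 1 fell between DEX and mock. That is near the 5.56% called higher and 7.15% called lower among all genes tested. F5H rose (log2 fold change 0.99 ± 0.14, edgeR adjusted p = 0.000357) and COMT1 fell (-0.63 ± 0.12, adjusted p = 0.00280). BGLU45 and BGLU46 are in that list but, being among the 134, are not in this count. XTH24, a xyloglucan endotransglucosylase/hydrolase that remodels cell walls, had 1 of the highest levels of all the genes. It was at 5609, 6769 and 5781 normalised counts with DEX and at 1386, 1478 and 1714 with mock. The microRNA line, at 677 and 578, was below every other library.

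Genes for lipids, sterols and cytochromes P450 numbered 14, with ratios of 2.04 to 37.2. ATS1 encodes a peroxygenase of the caleosin family, known from lipid droplets of seeds. It was at 41.5, 33.1 and 34.2 normalised counts with DEX, at 0.904, 1.08 and 0.951 with mock and at 0 and 0.916 in DEX-treated wild type. Mock libraries of ATS1 thus held about 1 count each, and its ratio of 37.2 rests on them. SQE6, a squalene monooxygenase gene of the sterol pathway, was at 1198, 1082 and 1277 with DEX and at 212, 284 and 258 with mock. CYP710A1, a sterol desaturase gene, was at 64.6, 105 and 86.9 with DEX and at 12.7, 22.6 and 8.56 with mock. Its neighbour CYP710A2 had a smaller ratio of 2.04 at a higher level, 534, 587 and 646 with DEX and 278, 252 and 336 with mock.

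The remaining P450 genes had ratios of 2.18 to 3.37. They were CYP71B2 (ratio 2.69), CYP78A9 (3.37), CYP91A2 (2.38) and CYP707A2 (2.18), which inactivates abscisic acid and is counted with the hormone genes. CYP78A9, known for fruit and seed growth, was at 27.7, 62.0 and 68.4 with DEX and at 15.4, 18.3 and 13.3 with mock, and 1 of its 3 DEX libraries was far lower than the others.

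Hormone genes numbered 11, with a median ratio of 2.27. NCED6, of abscisic acid synthesis, was at 50.8, 65.4 and 40.7 with DEX and at 6.33, 7.53 and 7.60 with mock. MES9, a methyl esterase gene, was at 115, 118 and 148 with DEX and at 19.0, 20.4 and 16.2 with mock. Among these genes were enzymes of both synthesis and breakdown of abscisic acid, and MES10, of the same family as MES9, had a ratio of 2.74.

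GA2OX4, a gibberellin 2-oxidase that inactivates gibberellin, was at 38.8, 41.6 and 51.8 normalised counts with DEX, at 19.9, 17.2 and 19.0 with mock and at 18.8 and 24.7 in DEX-treated wild type. It was the only gene of the gibberellin list among the 134. Of the 7 other genes tested in that list, 0 rose and 4 fell between DEX and mock by edgeR, including GA2OX1 (log2 fold change -1.38 ± 0.14) and GA20OX1 (-1.11 ± 0.21). That count leaves out GA2OX4, which was chosen for its rise in the same libraries, so it does not describe the whole list. In the cytokinin list 0 of 11 rose and 6 fell, and none of its genes is among the 134. Of all genes tested, 5.56% were called higher and 7.15% lower.

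Transcription factor and chromatin genes were the largest role, with 31 genes and a median ratio of 2.51. NTM1, a membrane-bound NAC factor, was at 150, 150 and 141 normalised counts with DEX, at 26.2, 25.8 and 24.7 with mock and at 28.2 and 28.4 in DEX-treated wild type. The zinc-finger gene ZFP1 was at 113, 109 and 128 with DEX and at 16.3, 23.7 and 23.8 with mock, and the related ZFP3 was at 29.5, 31.4 and 33.3 against 4.52, 5.38 and 8.56. NTM1 and both zinc-finger genes were far above mock in each DEX library, whereas ZFP2, at 31.4, 78.2 and 73.0 with DEX, came close to mock (12.7, 28.0 and 14.3) in 1 library.

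The 4 HD-ZIP homeobox genes were HB-7, which responds to drought and abscisic acid, HB21, AtHB23 and HB-2, which responds to shade. HB-7 was at 1205, 1324 and 1305 normalised counts with DEX and at 304, 366 and 296 with mock, a ratio of 3.97. HB21 was at 155, 285 and 309 with DEX and at 41.6, 110 and 63.7 with mock. AtHB23 had a ratio of 3.08 and HB-2 of 2.48. MYB62 had a ratio of 3.02 and its relative MYB116 of 2.05.

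CBF1 and CBF2, which switch on cold-response genes, were at 36.0, 42.5 and 48.1 and at 52.6, 64.6 and 88.7 normalised counts with DEX. With mock CBF1 was at 10.8, 16.1 and 12.4 and CBF2 at 19.9, 19.4 and 18.1. The third gene of the cluster, DREB1A (CBF3), which lies between them, was called higher (log2 fold change 1.06 ± 0.29, edgeR adjusted p = 0.0277). In unsprayed wild type CBF1 was at 9.39 in 1 library and 101 in the other, so that group says little of its level.

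Signalling genes numbered 8, and SHB1, an EXS-domain gene known for hypocotyl and seed growth, had the largest ratio among them. SHB1 was at 279, 402 and 373 normalised counts with DEX, at 51.5, 36.6 and 39.0 with mock and at 37.6 and 47.7 in DEX-treated wild type. The peptide genes IDL3, CLE42 and RTFL8 had ratios of 3.04, 3.03 and 2.65. The kinase genes MAPKKK13 and MAPKKK18 had ratios of 2.66 and 2.29.

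Metabolic genes numbered 15, with a median ratio of 3.09. GSR 1, a cytosolic glutamine synthetase gene, was at 5003, 5267 and 4317 normalised counts with DEX and at 1439, 1276 and 1355 with mock. SRG1, an oxygenase gene named for senescence, was at 191, 226 and 226 with DEX and at 24.4, 45.2 and 34.2 with mock. Stress, senescence and storage genes numbered 12, and PAP85, a cupin family gene, was at 111, 110 and 111 with DEX and at 5.42, 31.2 and 14.3 with mock. AT2G23680, of the WCOR413 cold acclimation family, was at 47.1, 57.8 and 41.6 with DEX and at 5.42, 7.53 and 4.75 with mock. The DEX libraries of PAP85 were nearly equal. AT3G22550, annotated as a putative NAD(P)H-quinone oxidoreductase subunit, and AT3G62550, annotated as an adenine nucleotide alpha hydrolase-like gene, were among the 8 with the highest DEX levels (3682 ± 215 and 3301 ± 213, n = 3).

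**Figure D2:**
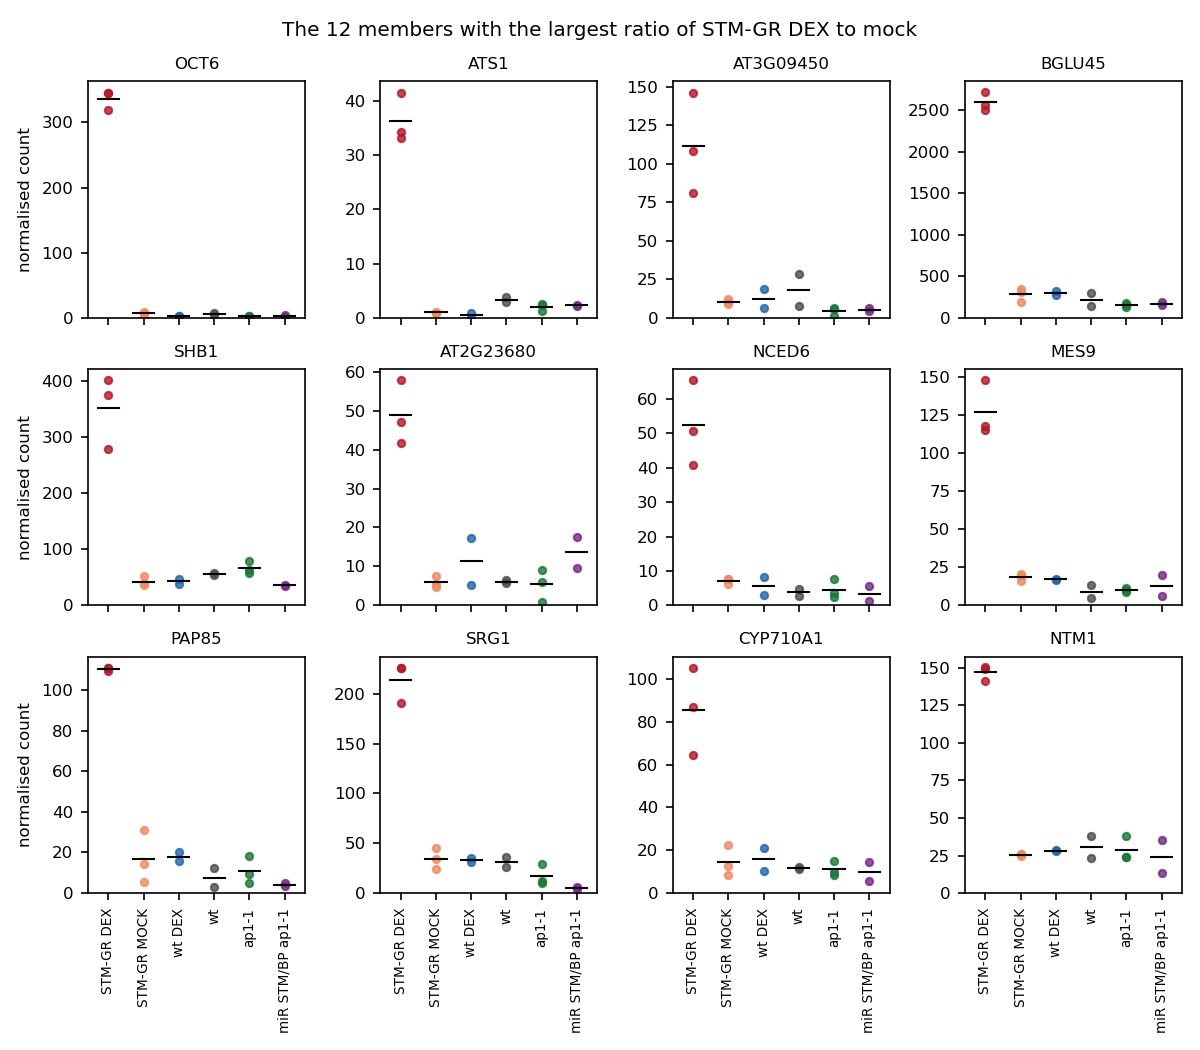
Points give the normalised count of each library in the 6 groups, and lines the group means, for the 12 genes with the largest ratio of DEX to mock. In each panel the 3 STM-GR DEX points lie above all other points.

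UFO, an F-box gene that acts with LFY in flower meristems, was the only gene of the floral identity list among the 134. It was at 58.2, 59.5 and 54.5 normalised counts with DEX, at 19.0, 23.7 and 22.8 with mock and at 26.1 and 21.1 in DEX-treated wild type. Of the other 4 genes in that list, AP1 (log2 fold change 0.66 ± 0.06, edgeR adjusted p = 7.92e-06) and LFY (0.61 ± 0.13, adjusted p = 0.00707) rose between DEX and mock, at less than 2-fold. In the KNOX and BELL list 5 of 12 rose and 1 fell, in the organ boundary list 4 of 13 rose and 1 fell, and in the stem cell list 3 of 7 rose and 0 fell. Of all genes tested, 5.56% were called higher and 7.15% lower. The risers of those lists include KNAT2, CUC1 (3.81 ± 0.12), BOP2 (2.35 ± 0.09) and AIL7, which are among the 7 left out of the 134 by name. These met the same conditions in the same libraries, so their rise is a description without a test.

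The microRNA gene MIR167d had a DEX mean of 56.6 normalised counts against 14.97 with mock, counted as its annotated precursor. The mature sequence of its family is shown because it ties MIR167d to its relatives, with the seed (bases 2 to 8) in capitals.
MIR167d: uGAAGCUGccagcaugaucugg
MIR167a and MIR167b: uGAAGCUGccagcaugaucua

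The sequences are RefSeq's on TAIR10.1, MIR167d at chr1:11137556-11137577 on the plus strand, MIR167a at chr3:8108090-8108110 and MIR167b at chr3:23406177-23406197, both plus. All 3 share the seed GAAGCUG. MIR167d was at 46.2, 53.5 and 70.3 with DEX and at 10.8, 15.1 and 19.0 with mock, while MIR167a and MIR167b had DEX means of 13.1 and 13.3 against mock means of 20.4 and 16.1. Among the 3 precursors MIR167d alone was far higher with DEX, a comparison chosen after its values were seen. The known targets ARF6 (log2 fold change 0.04 ± 0.08, edgeR adjusted p = 0.781) and ARF8 (-0.11 ± 0.07, adjusted p = 0.374), also chosen after their values were seen, were not called between DEX and mock. Precursor counts do not measure mature microRNA.

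The sprayed controls were set against unsprayed wild type, which is labelled with no treatment. Mock-treated STM-GR differs from it in the transgene as well as in the Silwet spray. DEX-treated wild type differs from it in both DEX and Silwet. Effects of spray, DEX and transgene therefore cannot be told apart here. Mock-treated STM-GR libraries lay wholly above wild type in 35 genes (26.1%, against 18.6% of the 19044 genes with a mean of at least 30) and wholly below in 12 (8.96% against 20.0%). DEX-treated wild type lay wholly above unsprayed wild type in 45 genes (33.6% against 22.7%) and wholly below in 20 (14.9% against 24.4%). The mock and DEX-treated wild-type libraries helped to choose the genes, so these shares are descriptions.

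In 4 genes both sprayed controls were at least 2-fold above unsprayed wild type without overlap. WRKY30, a stress-related WRKY factor, was at 34.4, 82.8 and 29.5 normalised counts in mock, at 59.6 and 54.1 in DEX-treated wild type and at 5.63 and 0.944 in wild type. AT3G16530, a legume lectin gene, was at 12.7, 61.3 and 13.3 in mock, at 32.4 and 85.2 in DEX-treated wild type and at 0.939 and 0 in wild type. The other lectin gene, AT3G15356, and the phospholipase gene PLA2A had the same order. In WRKY30 and both lectin genes ap1-1 and the microRNA line were also low, and the active STM-GR libraries were highest in all 4.

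In 14 genes at least 1 library without active STM-GR reached the lowest DEX-treated STM-GR library, and in all of them except CBF1 a library of ap1-1 or of the microRNA line did so. AT5G02760, a protein phosphatase 2C gene, was at 39.7, 79.9 and 82.3 normalised counts with DEX, and at 80.8, 87.2 and 136 in ap1-1 and 74.0 and 77.2 in the microRNA line, both unsprayed. Unsprayed wild type was low, at 18.8 and 34.0. GL3, a bHLH factor of trichome formation, was at 37.8, 37.4 and 31.4 with DEX and at 87.4 and 89.4 in the microRNA line. The microRNA line was thus far above DEX-treated STM-GR for GL3, and wild type far below both (17.8 and 13.2). ARF11, an auxin response factor, was at 1283, 1528 and 1600 with DEX and at 1285 and 1330 in the microRNA line. WOX12, FRU, MIR167d, GA2OX4, CYP707A2 and MYB116 overlapped with ap1-1 as well, and CBF1 did so with 1 wild-type library.

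**Figure D3:**
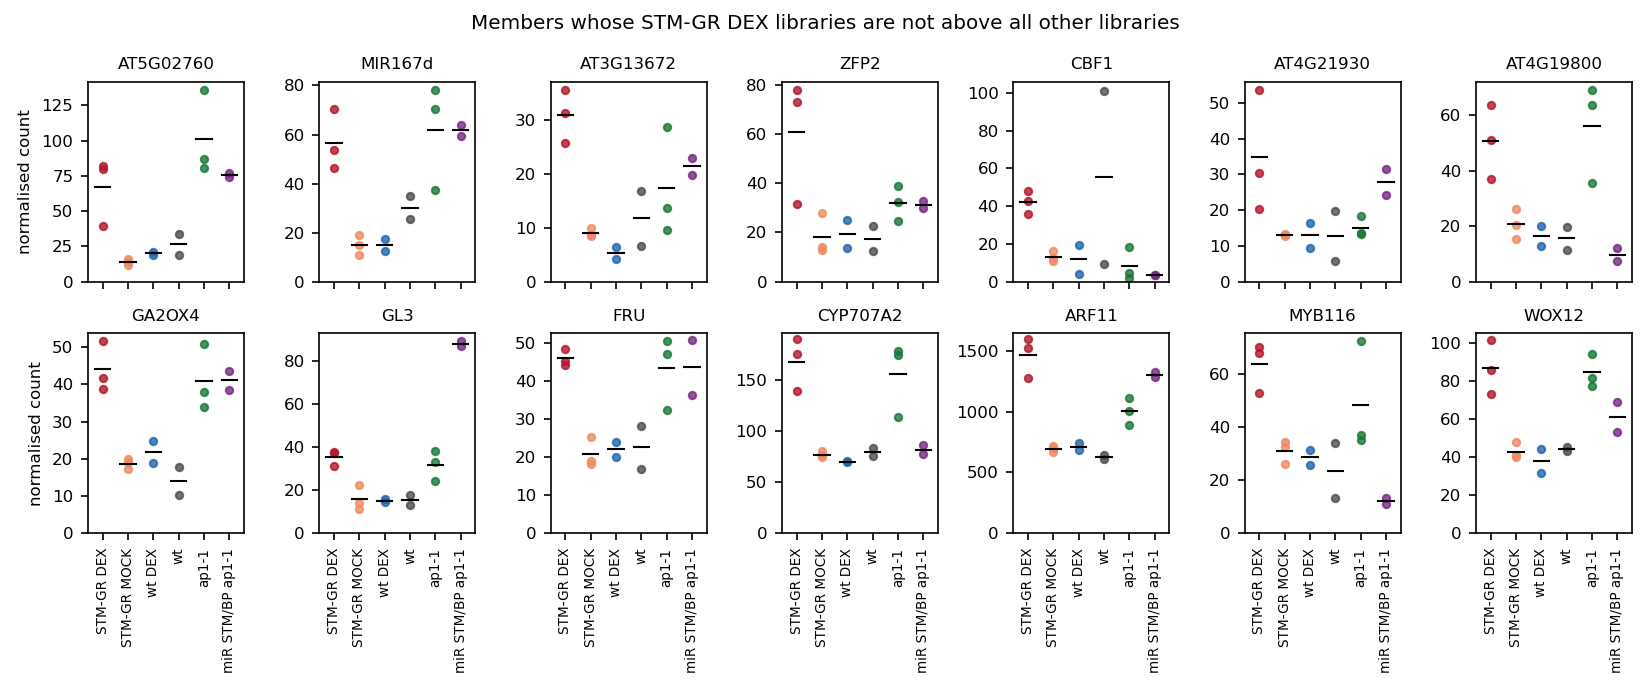
Points give the normalised count of each library in the 6 groups, and lines the group means, for the 14 genes whose DEX-treated STM-GR libraries do not all lie above the other libraries. In GL3 the 2 microRNA line libraries, at 87.4 and 89.4, lie above all others.

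Comparing the microRNA line with ap1-1 asks how these genes respond to a microRNA labelled as targeting STM and BP, in libraries that did not choose them. STM fell (log2 fold change -0.61 ± 0.08, edgeR adjusted p = 0.000149), while BP (KNAT1) was not called (-0.41 ± 0.14, adjusted p = 0.0701), at 906 and 942 normalised counts against 1467, 946 and 1249 in ap1-1. More of the 134 genes fell than rose. By edgeR 25 of the 134 were lower (18.7%, against 11.4% of all genes tested) and 5 higher (3.73% against 4.87%), and 54 had an unadjusted p under 0.05. Their median log2 fold change was -0.20, against -0.00 over all genes, and 11 of the fallers changed at least 2-fold. Shares of all genes with an unadjusted p under 0.05, or with a fall of at least 2-fold, were not computed. Neither of those counts is thus set against a background. All 134 were tested, but 11 would not pass the filter on unsprayed libraries alone. Fewer were called without 1 microRNA-line library, with 16 lower (11.94%, against 7.065% of all genes in that fit) and 1 higher (0.7463% against 2.063%) without replicate 1. Without replicate 2, 11 were lower (8.209% against 6.042%) and 3 higher (2.239% against 1.443%). In the same comparison all 3 mature pollen markers fell, and 3 of 7 touch and stress markers, among them CBF2, fell (summed 1250 to 1330 normalised counts in the microRNA line and 1686 to 3607 in ap1-1). Of the photosynthetic markers 3 of 6 fell (LHCB1.1, LHCB2.1 and LHCA1) and 2 rose, and of the meristem markers 3 of 7 tested fell (STM, WUS and TFL1) and AP1 rose. No tapetum or vascular marker was called. The part of these tissues and responses in the calls was not tested.

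The cell wall gene XTH24 was among the clearest fallers. It was at 677 and 578 normalised counts in the microRNA line and at 1254, 1326 and 1960 in ap1-1, with log2 fold change -1.27 ± 0.18 (edgeR adjusted p = 0.000178). LEA7, a late embryogenesis abundant gene, was at 68.0 and 53.0 against 202, 189 and 152, with log2 fold change -1.59 ± 0.17 (adjusted p = 2.05e-05). CBF2 was at 1.21 and 2.21 against 21.3, 21.8 and 17.3, with log2 fold change -3.45 ± 0.69 (adjusted p = 0.00267). In all of these the microRNA-line libraries lay below all ap1-1 libraries.

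AT4G19800, a chitinase-like glycosyl hydrolase gene, was at 7.28 and 12.1 against 63.8, 69.0 and 35.7, with log2 fold change -2.51 ± 0.43 (edgeR adjusted p = 0.00091). Among the genes that fell by less than 1 on the log2 scale were the transporters AT2G39130 (-0.66 ± 0.08), AT2G26690 (-0.59 ± 0.07) and AT1G33110 (-0.74 ± 0.11), with edgeR adjusted p of at most 0.000174. AT4G29905, an uncharacterized gene, fell by 1.18 ± 0.15 on the log2 scale. XTH24, LEA7, CBF2 and these 5 genes kept the call under every alternative tried. Further fallers that lost the call in at least 1 setting were MYB116 (-2.01 ± 0.44), BCAT-2 (-1.75 ± 0.39), a gene of branched-chain amino acid breakdown, HB21 (-1.57 ± 0.48) and BBX16 (-1.50 ± 0.31).

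By role, beside the 18.7% of the 134 genes and the 11.4% of all genes that were lower, 4 of 8 cell wall genes fell in the microRNA line, 3 of 8 transport genes, 6 of 22 genes of other or unknown role, 5 of 31 transcription factor genes and 0 of the 14 lipid genes. These groups are small, and differences between them were not tested. OCT6, with the largest ratio after STM-GR activation, was at 0.851 to 2.42 in ap1-1 and at 1.103 and 3.64 in the microRNA line, too low to show a fall. Its relatives OCT1 (-1.52 ± 0.21) and OCT2 (-1.05 ± 0.15), which are not among the 134, fell (edgeR adjusted p of at most 0.000188). BGLU45 was not called (0.13 ± 0.29, adjusted p = 0.824), while BGLU46 fell (-0.88 ± 0.26, adjusted p = 0.0305), a call lost in 5 settings. The difference between the 2 neighbours was not tested.

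The 5 genes that rose in the microRNA line were GL3, FLS6, LSH5, AT1G64710 and ARF11. GL3 was at 87.4 and 89.4 normalised counts against 38.3, 24.2 and 33.4 in ap1-1, with log2 fold change 1.45 ± 0.25 (edgeR adjusted p = 0.000797), and kept the call in every setting. FLS6, of a flavonol synthase family, rose by 1.13 ± 0.23 and LSH5, of the ALOG family, by 0.90 ± 0.22. AT1G64710, an alcohol dehydrogenase family gene, and ARF11 rose by less, at 0.44 ± 0.11 and 0.38 ± 0.10.

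**Figure D4:**
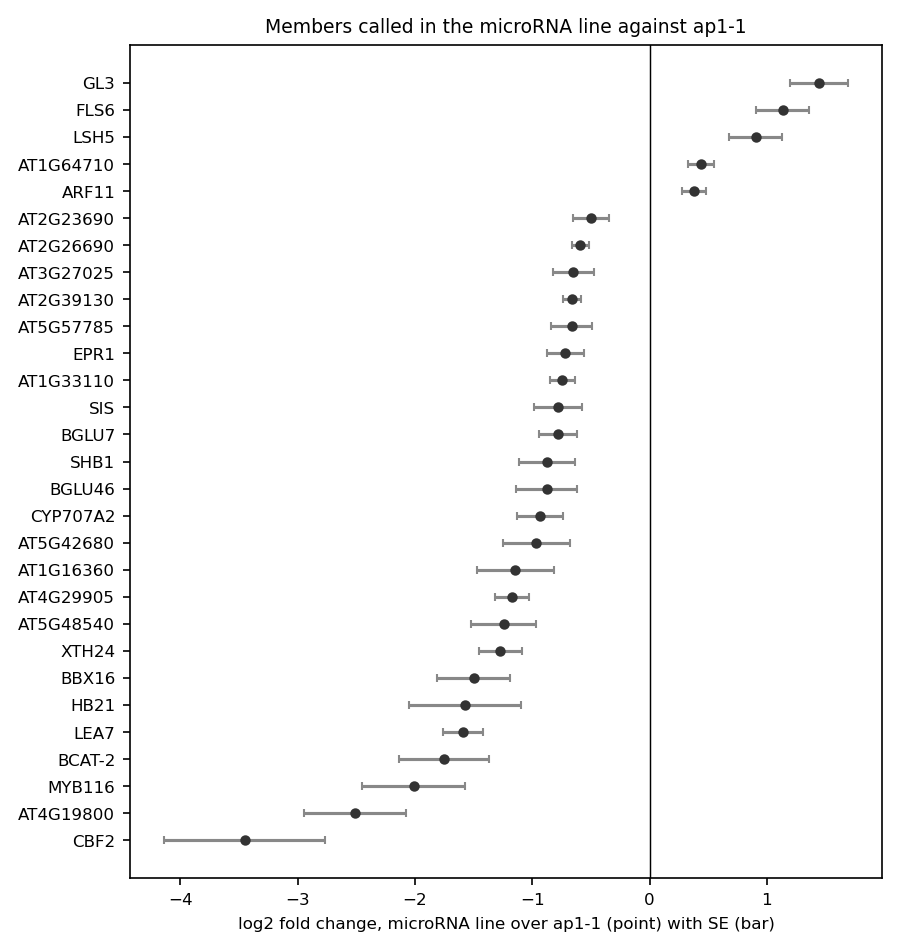
Points give the log2 fold change of the microRNA line over ap1-1 for genes called by edgeR, 1 called gene not being shown, and bars its SE. CBF2, at -3.45, is the lowest and GL3, at 1.45, the highest.

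The second comparison outside the choice set ap1-1 against wild type, which asks how these genes differ in plants labelled ap1-1. The allele is ap1-1 in the sample labels, followed here, but ap1-4 in the series' description of its design. More of the 134 genes rose than fell. By edgeR 20 were higher (14.9%, against 5.42% of all genes tested) and 10 lower (7.46% against 5.19%), and 59 had an unadjusted p under 0.05. The share of all genes at that unadjusted p was not computed, and only 123 of the 134 would pass the filter on unsprayed libraries alone. The 20 and 10 calls come from a fit in which all groups share the spread. With only these 2 groups in the fit 2 were higher and 1 lower, against 0.447% and 0.666% of all genes. Without wild-type replicate 1, 10 were higher (7.463%, against 1.778% of all genes in that fit), and without replicate 2, 13 were (9.701% against 2.662%). Without ap1-1 replicate 1, 5 were lower (3.731% against 5.057%). Summed vascular markers were at 5029 to 5856 normalised counts in ap1-1 and at 6889 to 7214 in wild type, with 1 of 7, SUC2, called lower (-0.74 ± 0.10, adjusted p = 0.000482). Of the 7 meristem markers tested, TFL1 was called higher (1.62 ± 0.37, edgeR adjusted p = 0.0126) and AP1 lower (-1.20 ± 0.07, adjusted p = 2.21e-07). No photosynthetic, pollen, tapetum or touch and stress marker was called. The part of vascular and meristem tissue in the calls was not tested.

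AT1G22160, a senescence-associated DUF581 gene, was at 1155, 898 and 969 normalised counts in ap1-1 and at 548 and 501 in wild type, with log2 fold change 0.95 ± 0.10 (edgeR adjusted p = 5.17e-05). AT2G39130 was at 811, 791 and 861 against 1377 and 1323, with log2 fold change -0.71 ± 0.07 (adjusted p = 3.18e-05). These 2 kept the call under every alternative, and in neither did the groups overlap.

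Of the 11 hormone genes 4 were higher in ap1-1 and 1, MES10, was lower (log2 fold change -0.49 ± 0.14, edgeR adjusted p = 0.0371). Among the 134 genes 14.9% were higher and 7.46% lower, and among all genes tested 5.42% and 5.19%. The higher hormone genes included AT5G02760 (log2 fold change 1.94 ± 0.34, edgeR adjusted p = 0.00278), GA2OX4 (1.52 ± 0.29, adjusted p = 0.00438) and CYP707A2 (0.99 ± 0.19, adjusted p = 0.00553). AT4G19800 (1.86 ± 0.38), PLA2A (1.37 ± 0.28), AT4G18220 (1.14 ± 0.25), a transporter of the drug/metabolite family, and GL3 (1.06 ± 0.30) were higher too. Lower genes included AT4G37220 (-1.002 ± 0.24), of the WCOR413 family, AT2G41870 (-0.96 ± 0.15), of the remorin family, AT2G29340 (-0.75 ± 0.22), a dehydratase family gene, and the peroxidase gene AT5G58390 (-0.70 ± 0.14). Each of these higher and lower calls was lost in at least 1 setting. The call was lost in 6 of 11 settings for MES10, in 5 for GL3 and in 4 for AT4G37220 and AT2G29340. CBF1 was also called (-2.85 ± 0.82), but its wild-type values of 9.39 and 101 spread widely, and without wild-type replicate 2 it was -0.32 with an edgeR adjusted p of 0.884.

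**Figure D5:**
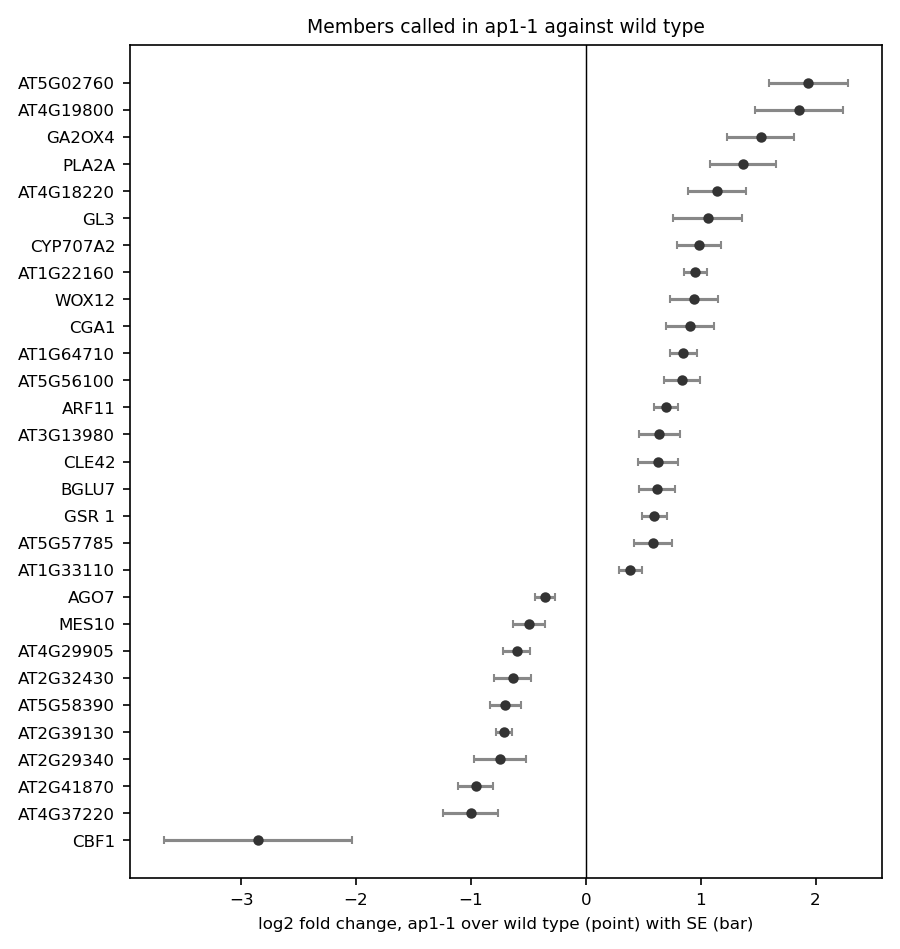
Points give the log2 fold change of ap1-1 over wild type for genes called by edgeR, 1 called gene not being shown, and bars its SE. AT5G02760 is the highest, at 1.94, and CBF1 the lowest, at -2.85.

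The microRNA line differed from wild type in both the ap1-1 mutation and the transgene, and shares its libraries with the other 2 comparisons. Of the 134 genes 20 were higher (14.9% against 12.1% of all genes tested) and 30 lower (22.4% against 16.8%), with 64 at an unadjusted p under 0.05. The share of all genes at that unadjusted p was not computed. Only 123 of the 134 would pass the filter on unsprayed libraries alone, and AT3G23470, which would not, is among the 30 called lower. Without wild-type replicate 1, 10 were higher (7.463%, against 5.769% of all genes in that fit). Without microRNA-line replicate 1, 13 were higher (9.701% against 7.078%) and 19 lower (14.18% against 12.38%), and without its replicate 2, 12 were higher (8.955% against 5.462%) and 19 lower (14.18% against 10.92%). Calls kept under every alternative were 8 higher and 14 lower. In the order microRNA line against ap1-1, ap1-1 against wild type and microRNA line against wild type, the log2 fold changes of AT2G39130 were -0.66, -0.71 and -1.37. For AT4G29905 they were -1.18, -0.60 and -1.78, for GL3 1.45, 1.06 and 2.51, and for ARF11 0.38, 0.70 and 1.07. For AT4G19800 they were -2.51, 1.86 and -0.65, the last of them not called. SRG1, which was among the strongest after STM-GR activation, was lower in the microRNA line than in wild type (log2 fold change -2.56 ± 0.53, edgeR adjusted p = 0.00212), at 6.07 and 4.41 against 36.6 and 26.4 normalised counts.

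Some of the genes lie next to each other. There were 6 pairs of adjacent genes, 12 genes in all. AT1G16360 and OCT6 lie 818 bases apart on opposite strands, with ratios of 2.43 and 50.8. CYP710A2 and CYP710A1 lie 1816 bases apart on the same strand. AT4G37220 and AT4G37225, which encodes another RNA, lie 47 bases apart on opposite strands, with ratios of 3.30 and 3.19, and without the strand setting their reads are less certain.

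Among the tested neighbours that are not of the 134, 39 of 217 were called higher between DEX and mock (18%, against 5.56% of all genes tested) and 5 lower (2.3% against 7.15%), and 7 rose at least 2-fold. Without genes that overlap a chosen gene or were left out by name, 35 of 195 were higher (17.9%) and 5 lower. They included HB-12 (log2 fold change 1.21 ± 0.14, edgeR adjusted p = 5.59e-05), the homeobox relative of HB-7 that lies beside CYP78A9, and AT5G39090 (2.21 ± 0.40, adjusted p = 0.00233), beside AT5G39080. Neighbouring genes can belong to 1 duplicated family and can share reads at their ends, and the part of either in these counts was not tested.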

How the data were processed

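The submitters' processing notes name TopHat2 2.0.6, HTSeq 0.62, DESeq2 and the build TAIR10. The authors deposited raw counts per gene for each library. They also deposited 1 table of normalised signal, in which each value is a count divided by its library's size factor. The normalised values chose the genes and give all levels, and the counts were tested. The 5 entries naming no gene, 5.49% to 6.63% of reads, were left out.

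Tests used edgeR 4.0.16 in R 4.3.3 (filterByExpr with a minimum count of 10, TMM, quasi-likelihood F tests, 1 fit of 15 libraries in 6 groups), with Benjamini-Hochberg adjustment over the 21716 genes tested and a call at 0.05. The biological coefficient of variation was 9.85%. The code was tested on simulated data. Values are mean ± SD, and log2 fold changes ± SE. Alternatives were DESeq2 1.42.0, limma-voom (limma 3.58.1), size factors, no filter, a replicate block, only the groups compared and leaving out each library.

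Genes, roles and lists were chosen with earlier results of these data known, and roles after the genes were seen. Named genes were the 12 with the largest ratio, the 8 with the highest DEX mean, up to 6 called in each direction per comparison, those at the threshold, list genes and families, with a few more chosen after their values were seen. Symbols, starts and sequences came from RefSeq's TAIR10.1, which held all 134 genes and 77 symbols. Motifs were searched in Python 3.11.15. Library depth limits precision for genes under about 10 normalised counts. The values of 1 of the 134 genes are not reported here, though it is included in the counts.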

Additional observations from a re-analysis of the deposited data

How the results depend on the processing

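Of the recomputed counts, 88 stayed within 1.5 times the main count and 21 did not, and no named gene reversed its direction in any setting. Among named genes 311 recomputed calls were kept and 60 lost. The number of genes chosen was 363 with a fold of 1.5, 46 with a fold of 3, and 121 to 159 with 1 library left out. With only the groups compared, 2 genes rose (1.493%, against 1.663% of all genes) and 21 fell (15.67% against 7.751%) in the microRNA line against ap1-1. In ap1-1 against wild type 2 rose (1.493% against 0.4474%) and 1 fell (0.7463% against 0.6664%). With 1 library left out, 1 to 7 rose and 11 to 27 fell in the microRNA line against ap1-1, 10 to 22 rose and 5 to 12 fell in ap1-1 against wild type, and 10 to 17 rose and 19 to 26 fell in the microRNA line against wild type. A lone remaining library was assumed to vary like the other groups. The cause of these moves was not tested, and fits with libraries or groups left out also held fewer samples. With 1000 bases before the start, a window chosen after seeing the data, 34 genes held TGACAG (25.4%, against 21.9% of all), 11 TGACAGNT (8.21% against 7.90%), 31 CACGTG (23.1% against 14.8%) and 31 AAATATCT (23.1% against 15.2%). Same-numbered replicates did not deviate together (correlations of -0.13 to 0.08), so numbers do not pair samples. With the number as a block, 7 rose (5.224%, against 4.085% of all genes) and 23 fell (17.16% against 10.6%) in the microRNA line against ap1-1. In ap1-1 against wild type 18 rose (13.43% against 5.093%) and 11 fell (8.209% against 5.199%). In the microRNA line against wild type 20 rose (14.93% against 11.72%) and 31 fell (23.13% against 16.58%). Genes with few counts without active STM-GR, such as OCT6 and ATS1, had too little depth to show a fall in the unsprayed groups.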
